A study of Oryzias latipes with 6 samples.

Results

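A group of 35 medaka transcripts was followed in hearts of 6 genotypes. They were selected by their levels in WT hearts carrying XBP1(S), in AXER-KO hearts and in WT hearts, out of 37495 transcripts measured. Levels are in CPM, the salmon read estimate of a transcript divided by the library total and scaled to 1000000 reads. A transcript was taken when its mean over all 36 libraries was at least 5 CPM, when its mean in WT hearts carrying XBP1(S) was at least 1.5 times that in WT hearts with the lowest XBP1(S) library above the highest WT library, and when its mean in KO hearts was below 1.5 times that in WT hearts. Among the 11256 transcripts that averaged 5 CPM or more, 491 reached the XBP1(S) ratio, 61 of these had no overlap between the libraries, and 35 of the 61 stayed below the KO ratio.

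RNA of whole hearts was sequenced at 5 days post-fertilization, with 6 libraries for each of 6 genotypes. [KO + XBP1(S)] denotes AXER-/-, XBP1(S/+), [KO + ATF6(N)] denotes AXER-/-, ATF6(N/+), and KO denotes AXER-/-. WT + XBP1(S) denotes AXER+/+, XBP1(S/+), WT + ATF6(N) denotes AXER+/+, ATF6(N/+), and WT denotes AXER+/+. The KO allele is a deletion of 2 nucleotides in exon 1 made by TALEN, and the mutation goes back to a single F1 fish. XBP1(S) comes from the fish's own XBP1 locus without its intron and ATF6(N) from its own ATF6α locus without the luminal region, each on 1 of the alleles and active in the whole embryo from fertilization. According to the study's own account, the heart samples also hold erythrocytes, so fewer cells of a type and less RNA per cell cannot be told apart in any value given here. Neither the labels nor the methods say whether the 6 libraries of a genotype are separate hearts, pools or repeats, so each test measures only the spread between these libraries.

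AXER supplies the endoplasmic reticulum (ER) with ATP from the cytosol, and in the ER chaperones such as BiP need it to fold proteins. When unfolded proteins accumulate, IRE1 splices the XBP1 mRNA into the form that encodes XBP1(S), and ATF6 is cut in the Golgi apparatus to release ATF6(N). Both are transcription factors of the unfolded protein response: ATF6 is known chiefly for ER chaperones, and XBP1(S) for a broad set of genes of folding, degradation, transport and secretion. Hearts that lack AXER have persistent ER stress, in which IRE1 and ATF6 are active without either engineered allele.

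The files name transcripts by Ensembl identifier only, and 0 of 37495 identifiers were found in the gene table at hand. The transcripts of AXER, XBP1 and ATF6 and the markers of heart muscle and blood were therefore not looked up, and neither the genotype labels nor the tissue was checked against them. Totals were 1850805 to 4728592 estimated reads in [KO + XBP1(S)] libraries, the shallowest genotype, and 2396096 to 19619140 in the other 30. No library stood apart: each correlated with the mean of the others of its genotype at 0.905 to 0.974, across transcripts of at least 5 CPM. The 10 most abundant transcripts took 16.2% to 26.2% of the reads of a library. No libraries of a genotype agreed within counting error, the lowest chi-square per degree of freedom among 90 pairs being 6.23.

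The values that chose the 35 transcripts are given as a description only. The ratio of mean CPM in WT + XBP1(S) over WT hearts ran from 1.51 to 3.04, with a median of 1.87, and was at least 2 in 15 transcripts. By edgeR's quasi-likelihood test, calls were made at a Benjamini-Hochberg adjusted p under 0.05 plus a fold of more than 1.5. In this comparison 32 of the 35 were called higher, beside 0.57% of all 18076 transcripts tested. The selection used these same libraries, so this count was largely set by it and gives no independent support. The ratio in KO over WT hearts ran from 0.914 to 1.49, with a median of 1.27, and was above 1 in 33 of the 35. In the same test 6 were called higher in KO hearts, beside 0.437% of all transcripts. Their ratios of mean CPM were 1.38 to 1.49, under the limit, while their fold changes passed 1.5 after TMM normalization (trimmed mean of M-values, which scales library sizes so that most transcripts are level). The group is thus defined by a limit on the KO ratio and not by unaltered levels in KO hearts.

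Transcripts on either side of the ratio limits had close values. The smallest XBP1(S) ratio inside was 1.51, and the largest just outside, among transcripts that met the other conditions, was 1.48. The largest KO ratio inside was 1.49 and the smallest just outside was 1.51. The lowest mean level inside was 7.86 CPM, against 1.74 CPM for the highest outside. The lowest WT + XBP1(S) library stood 1.03 times above the highest WT library in the closest transcript inside, and at 0.987 times in the closest outside. A further 309 transcripts met both ratios and failed on the overlap of libraries alone.

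Most of the 35 transcripts had mean levels in 3 tiers across the genotypes. In 27 of them both genotypes carrying XBP1(S) had higher mean CPM than [KO + ATF6(N)] and KO hearts, and these in turn had higher means than WT + ATF6(N) and WT hearts. With CPM scaled by TMM, this order held in 31. Both XBP1(S) genotypes were above the 4 others in 32 of the 35 on either scale. By mean CPM, the selection fixed WT + XBP1(S) above KO and WT hearts in every one of the 35, and it limited KO over WT. [KO + XBP1(S)], [KO + ATF6(N)] and WT + ATF6(N) hearts played no part in the selection beyond the mean of at least 5 CPM. How many of all transcripts have this order was not counted, so these counts are a description only.

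Summed over the 35 transcripts, the level was 6771 ± 599 CPM in [KO + XBP1(S)] hearts, 4257 ± 252 CPM in [KO + ATF6(N)] hearts and 3997 ± 225 CPM in KO hearts (SD, n = 6 each). It was 6510 ± 568 CPM in WT + XBP1(S) hearts, 3038 ± 134 CPM in WT + ATF6(N) hearts and 3116 ± 140 CPM in WT hearts (SD, n = 6 each). By library the sum ran from 5916 to 7474 CPM in [KO + XBP1(S)] hearts and from 5597 to 7262 CPM in WT + XBP1(S) hearts, ranges that overlapped. It was 3918 to 4666 CPM in [KO + ATF6(N)] hearts and 3746 to 4367 CPM in KO hearts, which overlapped too, and neither range reached the XBP1(S) libraries. The lowest tier was 2900 to 3255 CPM in WT + ATF6(N) hearts and 2955 to 3291 CPM in WT hearts, again overlapping. By column totals it was below every KO library. This separation of the lower tiers does not hold once sums are divided by the TMM factors. WT replicate 5 had a sum of 3291 CPM and a factor of 0.872, and KO replicate 6 had 3878 CPM and 1.12. Divided by these factors, the WT library is the higher.

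**Figure D1:**
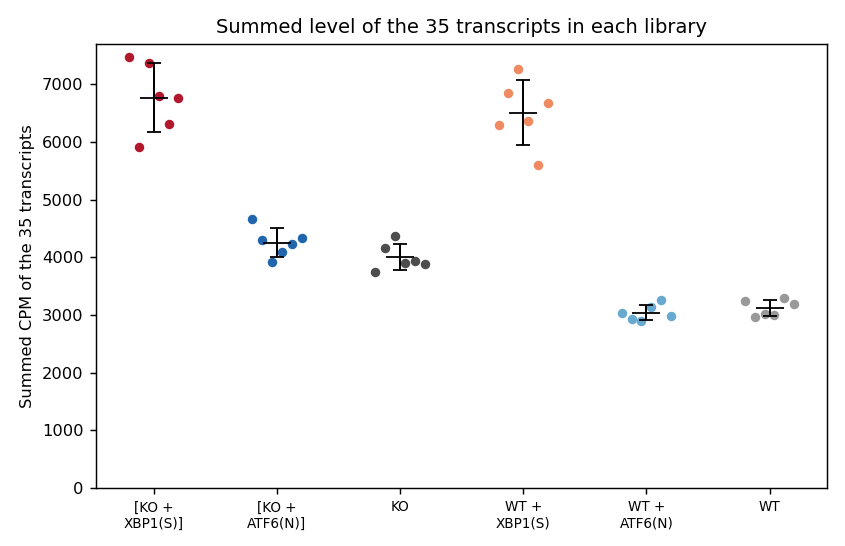
Summed CPM of the 35 transcripts (y axis) in each library, by genotype (x axis). Points are the 6 libraries of a genotype, and bars are the mean and SD. By column totals the libraries fall into 3 bands. The band with XBP1(S) is at 5597 to 7474 CPM. Without it, KO hearts are at 3746 to 4666 CPM and WT hearts at 2900 to 3291 CPM. The lower bands overlap when the sums are divided by the TMM factors. WT + XBP1(S), KO and WT libraries were used to choose the transcripts.

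The median transcript stood at 2.04 times its WT level in [KO + XBP1(S)] hearts and 1.32 times in [KO + ATF6(N)] hearts, by mean CPM. The corresponding medians were 1.27 in KO hearts, 1.87 in WT + XBP1(S) hearts and 1.00 in WT + ATF6(N) hearts. Between the XBP1(S) genotypes, [KO + XBP1(S)] had the higher mean in 17 of the 35 transcripts by CPM and in 11 with CPM scaled by TMM. The selection chose transcripts that were high in the WT + XBP1(S) libraries, so these counts cannot give the direction of a difference.

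**Figure D2:**
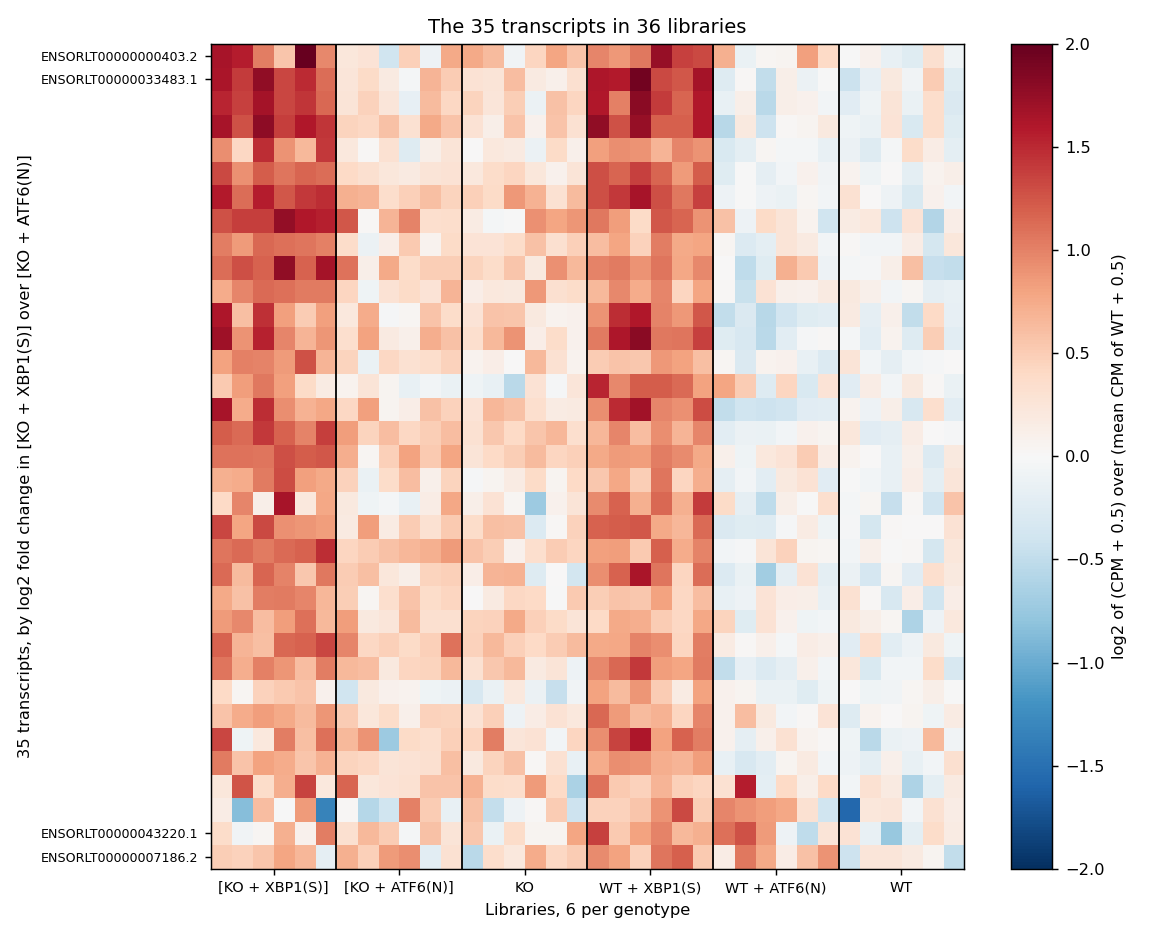
Each of the 35 transcripts (y axis, ordered by the fold change in [KO + XBP1(S)] over [KO + ATF6(N)] hearts) in each of 36 libraries (x axis, 6 per genotype), coloured by log2 of CPM + 0.5 over the WT mean + 0.5. Red is above the WT mean. Most transcripts are reddest in both XBP1(S) genotypes, paler in [KO + ATF6(N)] and KO hearts and near the WT mean in WT + ATF6(N) hearts, whereas the lowest rows do not have this order.

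Whether levels were higher with XBP1(S) than with ATF6(N) in hearts lacking AXER was tested in [KO + XBP1(S)] against [KO + ATF6(N)] hearts, a pair of genotypes that the ratios of the selection did not use. The estimate of spread in each test came from all 36 libraries, so it drew in part on libraries that the selection used. A rise with XBP1(S) and a fall with ATF6(N) cannot be told apart in this comparison alone, and the values of both against KO hearts are given further on. Higher levels were called in 7 of the 35 transcripts, beside 0.122% of all transcripts tested (22 of 18076), and lower levels in none, beside 0.0443% (8 of 18076). None of the 35 had an unadjusted p under 0.05 in the lower direction by edgeR, DESeq2 or limma-voom, beside 3.88% of all transcripts by edgeR. The log2 fold change was positive in 32 of the 35, with a median of 0.49 and a range of -0.17 to 1.06, against a median of -0.00 over all transcripts. An unadjusted p under 0.05 with a higher level was found for 23 of the 35, beside 3.74% of all transcripts. In 17 of the 35 every [KO + XBP1(S)] library was above every [KO + ATF6(N)] library, beside 0.808% of the 11256 transcripts at 5 CPM or more. Some of the 35 had close levels or varied together, as given further on, so these counts need not be of 35 separate genes.

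The 7 called transcripts had log2 fold changes of 0.69 to 1.06 and adjusted p of 0.00195 to 0.0466 (edgeR), and in 6 of them the libraries did not overlap. Another 3 exceeded a fold of 1.5 without a call, at adjusted p of 0.0507 to 0.0845. The number called depended on single libraries. It was 1 without [KO + XBP1(S)] replicate 3 or [KO + ATF6(N)] replicate 3 or 6 (replicates numbered by column order). It was 2 without [KO + XBP1(S)] replicate 1 or 5 or [KO + ATF6(N)] replicate 1 or 4, and it was 3 without [KO + ATF6(N)] replicate 5. In these fits 12 to 17 of all transcripts were called higher, against 22 with all libraries, so calls fell among all transcripts too. Over the same omissions the median log2 fold change stayed between 0.39 and 0.51. When library totals were used without TMM, 11 of the 35 were called, with all transcripts shifted by a median of 0.12 and 30 called higher and 4 lower among them. A fit of the compared genotypes alone takes its spread from no library behind the ratios of the selection. It called 6 of the 35 higher, and 18 of all transcripts.

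ENSORLT00000000403.2 had the largest log2 fold change of the called transcripts. It was at 15.4, 26.8 and 45.2 CPM in [KO + XBP1(S)] hearts (lowest, median and highest of 6 libraries), against 7.76, 12.5 and 17.9 CPM in [KO + ATF6(N)] hearts. The ranges overlapped, with the lowest [KO + XBP1(S)] library under the highest [KO + ATF6(N)] library. On the log2 scale the fold change was 1.06 (standard error 0.24, edgeR adjusted p = 0.0466). The call was lost on leaving out any one of 10 of the 12 libraries, the exceptions being [KO + XBP1(S)] replicates 4 and 6, and the adjusted p over all alternatives ran from 0.00323 to 0.268. It was also lost with limma-voom (adjusted p = 0.0900). The same was true of edgeR without the filter on low counts (adjusted p = 0.106) and on the compared genotypes alone (adjusted p = 0.244). The transcript was at 12.5 ± 3.6 CPM in [KO + ATF6(N)] and 13.4 ± 3.8 CPM in WT + ATF6(N) hearts (SD, n = 6 each). After TMM normalization the sign of this difference was the opposite, with a log2 value of 0.10 (standard error 0.24, edgeR adjusted p = 0.994). In KO hearts the transcript was at 15.3 ± 3.1 CPM (SD, n = 6). Over KO hearts its log2 fold change was 0.75 in [KO + XBP1(S)] hearts (standard error 0.24, edgeR adjusted p = 0.245). It was -0.31 in [KO + ATF6(N)] hearts (standard error 0.24), the lowest of the 35. Neither was called.

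ENSORLT00000033483.1 came next. It was at 38.4, 48.4 and 60.7 CPM in [KO + XBP1(S)] hearts, against 16.9, 21.8 and 28.3 CPM in [KO + ATF6(N)] hearts, with no overlap. This corresponds to a log2 fold change of 1.01 (standard error 0.22, edgeR adjusted p = 0.0295). The same transcript was at 41.8, 53.9 and 68.0 CPM in WT + XBP1(S) hearts, 18.6, 21.1 and 26.9 CPM in KO hearts, 12.3, 16.7 and 18.8 CPM in WT + ATF6(N) hearts and 12.8, 16.1 and 25.1 CPM in WT hearts. High values were thus found in the 12 libraries with XBP1(S), and none of the other 24 reached them. It lost its call without [KO + XBP1(S)] replicate 1, 3 or 5 or [KO + ATF6(N)] replicate 1, 3, 4 or 6, with adjusted p over all alternatives of 0.000138 to 0.159. The call was also lost without the filter on low counts (edgeR adjusted p = 0.0780).

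This transcript belongs to the 3 with the highest XBP1(S) ratios, all at least 2.7, and this trio had close CPM values in each genotype. Their mean levels were 49.2 to 50.9 CPM in [KO + XBP1(S)] hearts and 17.3 to 18.3 CPM in WT hearts. Their log2 fold changes in [KO + XBP1(S)] over [KO + ATF6(N)] hearts were 0.91 to 1.01, of which 2 were called. Across the 36 libraries their deviations from the genotype means correlated at 0.72 to 0.79 (log2 of CPM + 0.5). Their read estimates were whole numbers in every library. An estimate that is not whole arises where salmon shares reads out among transcripts. Whole estimates do not show the opposite, since BWA placed the reads before salmon counted them. Whether they belong to 1 gene was not tested. A further set of the 35, at means of 25.2 to 26.3 CPM over all libraries, also had close values in each genotype. Their means were 35.1 to 38.6 CPM in [KO + XBP1(S)] hearts and 16.9 to 19.9 CPM in WT hearts. In each of this set and of the trio, every [KO + XBP1(S)] library was above every [KO + ATF6(N)] library. Whether this set belongs to 1 gene was not tested either.

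**Figure D3:**
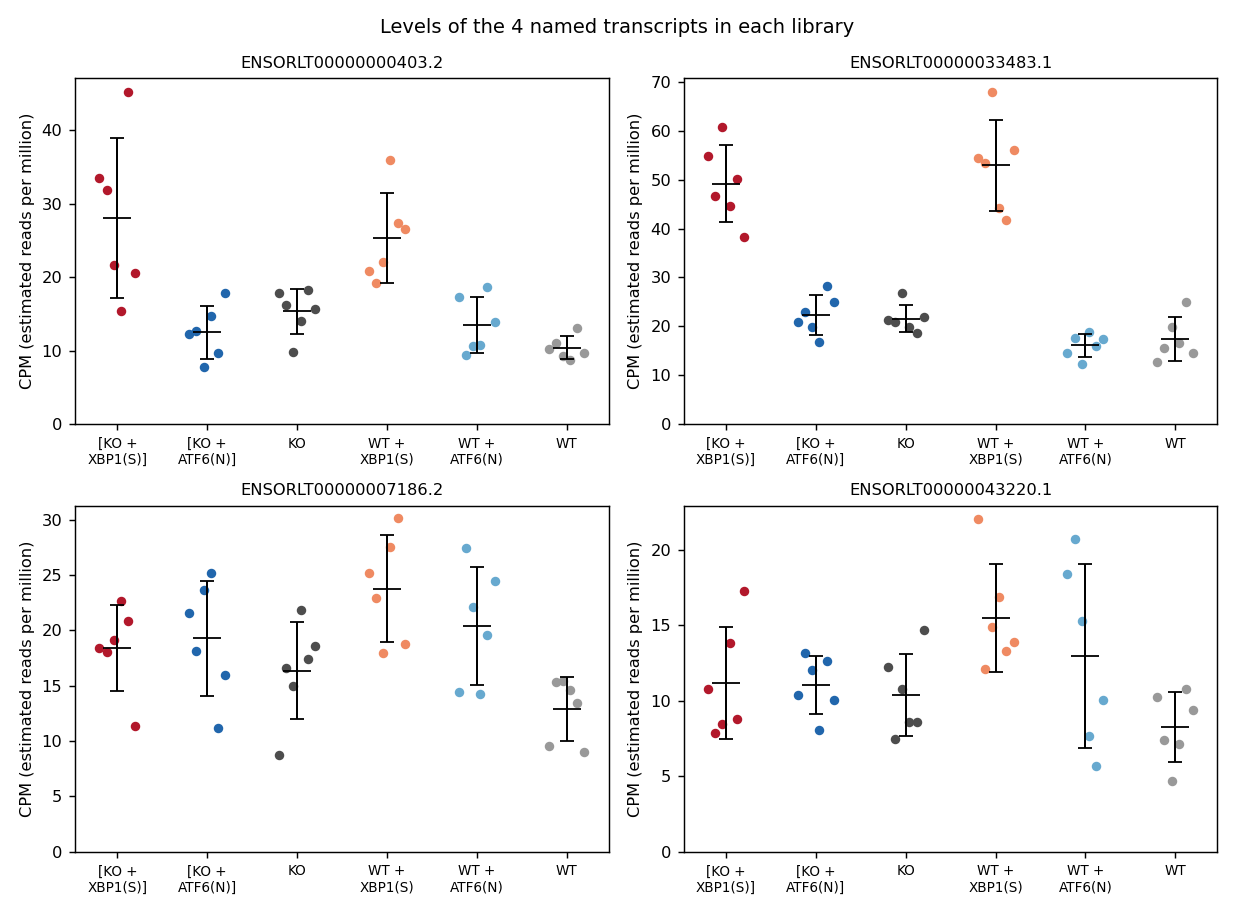
CPM (y axes, from 0) of the 4 named transcripts in each library, by genotype (x axes), with points for the 6 libraries and bars for mean and SD. ENSORLT00000033483.1 separates the 12 libraries with XBP1(S) from the other 24, ENSORLT00000000403.2 has overlapping [KO + XBP1(S)] and [KO + ATF6(N)] libraries, and the lower pair has overlapping levels in all 3 KO genotypes.

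The transcript with the most reads of the group was at 883, 1021 and 1245 CPM in [KO + XBP1(S)] hearts, against 375, 528 and 868 CPM in [KO + ATF6(N)] hearts, and its libraries did not overlap. The log2 fold change was 0.72 (standard error 0.15, edgeR adjusted p = 0.0263). In WT + ATF6(N) hearts it was at 280, 413 and 550 CPM, a range that overlapped with the [KO + ATF6(N)] libraries. The log2 fold change in [KO + ATF6(N)] over WT + ATF6(N) hearts was 0.69 (standard error 0.15, edgeR adjusted p = 0.0139). It was the only one of the 35 called in both tests. Its estimates were not whole in 20 libraries, so part of its reads was shared out among transcripts.

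A further transcript, with the smallest adjusted p of the 35, was at 58.7, 67.1 and 71.8 CPM in [KO + XBP1(S)] hearts, against 29.6, 38.4 and 46.4 CPM in [KO + ATF6(N)] hearts. On the log2 scale the fold change was 0.69 (standard error 0.11, edgeR adjusted p = 0.00195). Its libraries were narrowly spread and did not overlap between these genotypes.

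Of the 35, 4 had mean CPM in WT + ATF6(N) hearts at least 1.4 times that in WT hearts, a limit set after the values were seen. This ratio, which chose the 4, was 1.49 to 1.60 in them and 0.781 to 1.30 in the other 31. Their mean levels were 7.86 to 18.5 CPM over all libraries. Of these 4, 3 were the only ones of the 35 not called in WT + XBP1(S) over WT hearts. Their adjusted p there was 0.0582 to 0.460 (edgeR). The ratios of WT + XBP1(S) and of WT + ATF6(N) hearts are both taken over the same WT libraries. Whether the 4 form a group of their own was not tested. The log2 fold changes in [KO + XBP1(S)] over [KO + ATF6(N)] hearts were -0.17 to 0.11 in the 4 and at least 0.23 in the other 31, given as a description without a test.

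ENSORLT00000007186.2, one of these 4, was at 11.3, 18.8 and 22.7 CPM in [KO + XBP1(S)] hearts, against 11.1, 19.9 and 25.2 CPM in [KO + ATF6(N)] hearts. This corresponds to a log2 fold change of -0.17 (95% interval -0.64 to 0.29, edgeR adjusted p = 0.906), so a rise of 1.5-fold, 0.58 on this scale, lies outside the interval. It was at 20.4 ± 5.3 CPM in WT + ATF6(N) hearts and 12.9 ± 2.9 CPM in WT hearts (SD, n = 6 each), and the difference of 0.59 on the log2 scale was not called (standard error 0.23, edgeR adjusted p = 1).

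ENSORLT00000043220.1 was at 7.85, 9.80 and 17.3 CPM in [KO + XBP1(S)] hearts, against 8.06, 11.2 and 13.2 CPM in [KO + ATF6(N)] hearts. The log2 fold change was -0.15 (95% interval -0.75 to 0.44, edgeR adjusted p = 0.947). Its sign turned with library totals in place of TMM, to 0.0049. In WT + ATF6(N) hearts it ranged from 5.68 to 20.7 CPM, and in WT hearts from 4.67 to 10.8 CPM, with overlap.

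Whether loss of AXER raised these transcripts was tested in a further pair of genotypes outside the ratios of the selection, [KO + ATF6(N)] against WT + ATF6(N) hearts. Higher levels were called in 9 of the 35, beside 0.465% of all transcripts (84 of 18076), and lower levels in none, beside 0.138% (25 of 18076). None of the 35 had an unadjusted p under 0.05 in the lower direction by edgeR, DESeq2 or limma-voom, beside 3.13% of all transcripts by edgeR. The log2 fold change was positive in 32 of the 35, with a median of 0.59 and a range of -0.30 to 1.01, against a median of -0.02 over all transcripts. An unadjusted p under 0.05 with a higher level was found for 27 of the 35, beside 3.49% of all transcripts. The libraries did not overlap in 10 of the 35, beside 0.551% of the transcripts with at least 5 CPM. Here too the counts need not be of 35 separate genes. In hearts carrying ATF6(N), these values go against reading the group as one that AXER loss leaves level.

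The 9 called transcripts had log2 fold changes of 0.60 to 1.01 and adjusted p of 2.19e-05 to 0.0283 (edgeR). Another 9 exceeded a fold of 1.5 without a call, at adjusted p of 0.0607 to 0.750. Leaving out any 1 of the 12 libraries gave 6 to 12 calls, with 70 to 88 of all transcripts called higher. With library totals in place of TMM, 6 of the 35 were called, with all transcripts shifted by a median of -0.22 and 53 called higher and 43 lower among them. A fit of the compared genotypes alone called 11 of the 35 higher, and 97 of all transcripts.

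The smallest adjusted p of this comparison was that of a transcript at 201, 222 and 270 CPM in [KO + ATF6(N)] hearts, against 131.1, 142 and 159 CPM in WT + ATF6(N) hearts. The libraries did not overlap. On the log2 scale the fold change was 0.82 (standard error 0.12, edgeR adjusted p = 2.19e-05). In [KO + XBP1(S)] hearts it was higher still, at 301, 346 and 402 CPM, though the log2 fold change of 0.52 over [KO + ATF6(N)] hearts missed a call (standard error 0.12, edgeR adjusted p = 0.0507).

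The largest fold change of this comparison was that of a transcript at 98.9, 130 and 169 CPM in [KO + ATF6(N)] hearts, against 67.4, 72.5 and 82.2 CPM in WT + ATF6(N) hearts, without overlap. This corresponds to a log2 fold change of 1.01 (standard error 0.22, edgeR adjusted p = 0.0121). It varied together with 2 others of the 35: across the 36 libraries, the deviations of the 3 from their genotype means correlated at 0.93 to 0.97. The median over all 595 pairs of the group was 0.01, but 20 pairs exceeded 0.7, so not all of the 35 varied independently. The estimates of the 3 that correlated at 0.93 to 0.97 were not whole in 24 to 28 of the libraries. Whether these 3 share reads or a gene was not tested. Of the group as a whole, 26 of 35 (74.3%) had an estimate that was not whole in at least 1 library, against 51.2% of the transcripts with at least 5 CPM.

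**Figure D4:**
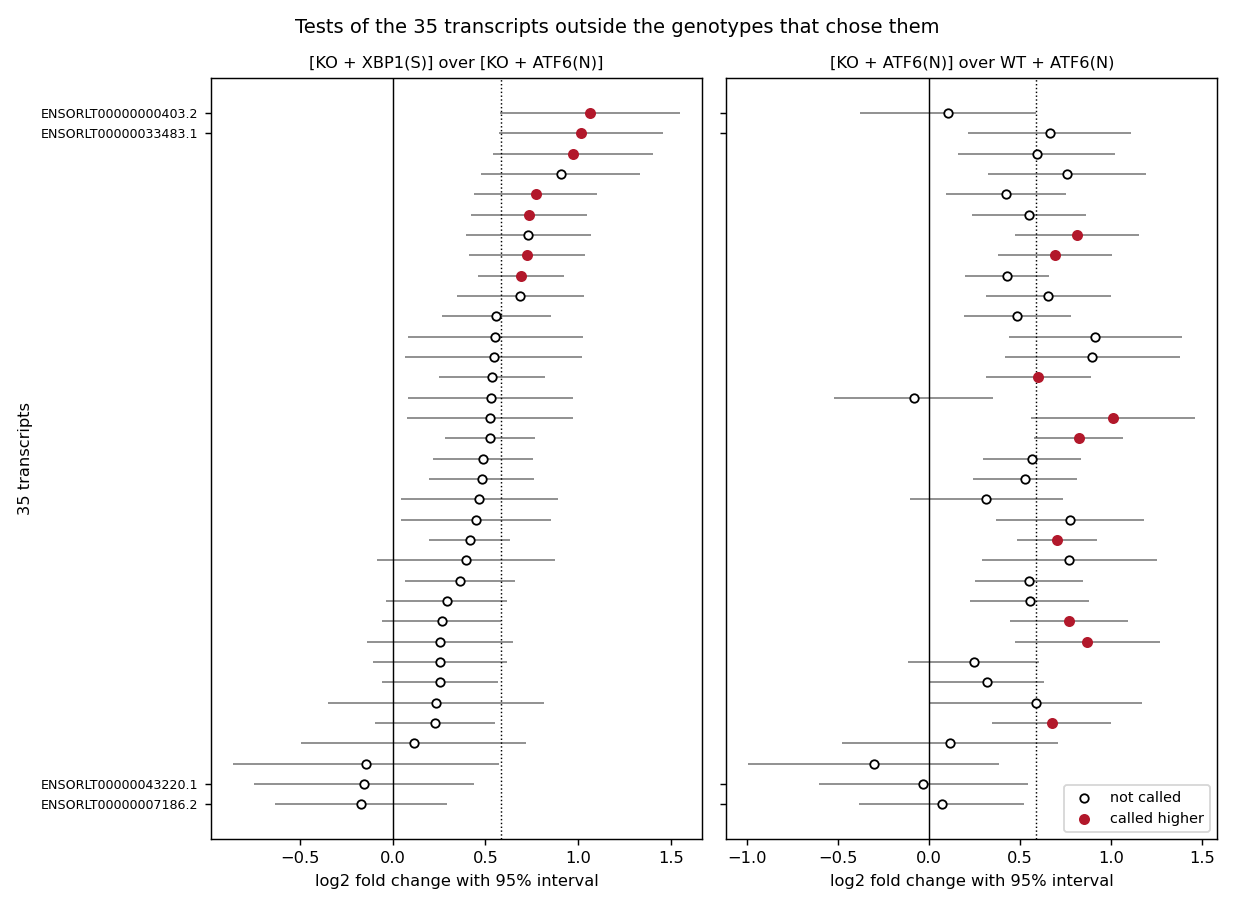
Log2 fold changes (x axes) with 95% intervals for the 35 transcripts (y axis) in [KO + XBP1(S)] over [KO + ATF6(N)] hearts (left) and in [KO + ATF6(N)] over WT + ATF6(N) hearts (right). Filled points were called higher by edgeR, 7 on the left and 9 on the right; the dotted line is a fold of 1.5, and most points lie to the right of 0 in both panels.

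These tests share the [KO + ATF6(N)] libraries, which are the lower side of the one and the higher side of the other. Of the 35 transcripts, 1 was called in both, 6 only in the XBP1(S) comparison, 8 only in the AXER comparison and 20 in neither, and no difference between the comparisons was tested. The 26 transcripts that met the XBP1(S) conditions but reached a KO ratio of 1.5 gave 8 calls in the XBP1(S) comparison, beside 0.122% of all transcripts. Their median log2 fold change there was 0.56. In the AXER comparison they gave 19 calls, beside 0.465% of all transcripts, and a median of 0.96. These values are set beside those of the 35 without a test.

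The remaining comparisons include KO or WT hearts, which the selection used. In [KO + XBP1(S)] over KO hearts, 7 of the 35 were called higher, beside 0.138% of all transcripts, at a median log2 fold change of 0.56, and the selection had kept the KO level low. Of these 7, 4 were among the 7 called against [KO + ATF6(N)] hearts. The count was 1 without KO replicate 4, and it was 2 without [KO + XBP1(S)] replicate 1 or 3 or KO replicate 6. It was 3 without KO replicate 1, and it was 4 without [KO + XBP1(S)] replicate 5 or KO replicate 5. In these fits 15 to 19 of all transcripts were called higher, against 25 with all libraries. With library totals in place of TMM the count among the 35 was 19. All transcripts were then shifted by a median of 0.13, with 52 called higher and 7 lower among them, against 25 and 7 with TMM.

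ATF6(N) gave no call among the 35 in either background. In [KO + ATF6(N)] over KO hearts, 0 of the 35 and 0% of all transcripts were called higher by edgeR, and DESeq2 and limma-voom also called none. At the same limits on fold and adjusted p, the study reported genes altered by ATF6(N) in KO hearts. The lack of calls here applies only to the tests run, which were on single transcripts. The reason for the difference from the study was not tested. At an unadjusted p under 0.05, 0 of the 35 were higher by edgeR, 1 by DESeq2 and 0 by limma-voom, and 157 of all transcripts (0.869%) were higher by edgeR. Over the 35, the log2 fold change had a median of 0.07, with a range of -0.31 to 0.22. In 30 of the 35 the upper end of the 95% interval lay under a fold of 1.5. The share of all transcripts with such an interval was not counted, so this count shows nothing particular to the 35.

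In WT + ATF6(N) over WT hearts, 0 of the 35 were called by edgeR, DESeq2 or limma-voom, beside 0.0111% of all transcripts called higher by edgeR. At an unadjusted p under 0.05, 1 of the 35 was higher, beside 1.71% of all transcripts, and 1 was lower, beside 1.59%, by edgeR. The median log2 fold change was -0.07, with a range of -0.46 to 0.59, and in 29 of the 35 the upper end of the 95% interval lay under a fold of 1.5. Here too the share of all transcripts with such an interval was not counted. The selection had required low levels in WT hearts relative to WT + XBP1(S) hearts.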

How the data were processed

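Total RNA of medaka hearts was made into Lasy-Seq libraries and sequenced. The labels give the strain as HdrR and the methods name cab, so the strain is in doubt. Per the labels and the methods, the authors trimmed the reads with fastp 0.21.0, mapped them with BWA 0.7.17-r1188 and quantified them with salmon, and they deposited for each library an estimated count per transcript, which is not corrected for transcript length, so CPM of different transcripts set side by side are shares of reads and not relative abundances. The submitters' notes name a mouse build, whereas the identifiers are of medaka. A share of 1.88% of the estimated counts as deposited was not whole (tolerance 1e-06), and rounding preceded all tests.

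In R 4.3.3, edgeR 4.0.16 was run on all 36 libraries, with filterByExpr (18076 transcripts left), TMM, 1 mean per genotype, a robust quasi-likelihood fit and Benjamini-Hochberg adjustment over all transcripts tested. All 35 selected transcripts passed the filter, which a transcript can pass through the genotype where it is high. CPM used column totals without TMM. The pipeline was tested on simulated counts. Alternatives were DESeq2 1.42.0, limma-voom (limma 3.58.1), other size factors, no filter, fits of the compared genotypes alone, other limits in the selection and omission of single libraries. The removal of the 10 most abundant transcripts and the TMM scaling of CPM were chosen after seeing the data. The transcripts and lists were chosen with earlier results of these data known. Named by identifier were the 2 called transcripts with the largest fold change in [KO + XBP1(S)] over [KO + ATF6(N)] hearts and the 2 with the lowest. Lists of pathway and marker genes were not run, since no gene names were paired. Total depth was 1850805 to 19619140 reads per library, and the median standard error of the 35 log2 fold changes was 0.18 in each comparison tested.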

Additional observations from a re-analysis of the deposited data

How the results depend on the processing

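The selection gave 15 transcripts at an XBP1(S) ratio of at least 2, 28 at a mean of at least 20 CPM and 39 with TMM-scaled CPM, of which 22 were among the 35. Without 1 library it gave 33 to 45. For [KO + XBP1(S)] over [KO + ATF6(N)] hearts, calls among the 35 numbered 11 with DESeq2 (57 of all transcripts called higher), 11 with library totals (30), 2 without the filter on low counts (11) and 4 of the 15 at a ratio of 2 (22), against 7 (22). Without 1 library they numbered 1 to 7 (12 to 23). For [KO + ATF6(N)] over WT + ATF6(N) hearts they numbered 14 with DESeq2 (106), 3 of the 15 at a ratio of 2 and 5 of the 39 with TMM-scaled CPM (84 each), against 9 (84). For [KO + XBP1(S)] over KO hearts they numbered 13 with DESeq2 (70), 12 with RLE size factors (33), 19 with library totals (52), 2 without the filter (15) and 3 of the 15 at a ratio of 2 (25), against 7 (25). Without 1 library they numbered 1 to 10 (15 to 29). The log2 fold change of ENSORLT00000043220.1 turned from -0.15 to 0.0049 with library totals. The cause of these differences was not tested. The 2 comparisons of ATF6(N) with the genotype without it had no call among the 35 under any alternative. Over all transcripts there was also none in [KO + ATF6(N)] over KO hearts under any alternative. In WT + ATF6(N) over WT hearts only 1 or 2 of all transcripts were called higher and none lower. The lack of calls therefore shows nothing particular to the 35. No paired analysis was possible because the labels give no replicate numbers, and the library numbers are only the order of columns. Depth was lowest in [KO + XBP1(S)] libraries, and its part in the number of calls was not tested.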

Other observations

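The 309 transcripts that met both ratios and failed only because WT + XBP1(S) and WT libraries overlapped were also followed. In [KO + XBP1(S)] over [KO + ATF6(N)] hearts, 4 of the 309 were called higher by edgeR. This stands beside 7 of the 35 and 0.122% of all transcripts (22 of 18076). Log2 fold changes there had a median of 0.12 in the 309, beside 0.49 in the 35 and -0.00 over all transcripts. In [KO + ATF6(N)] over WT + ATF6(N) hearts, 3 of the 309 were called higher, beside 9 of the 35 and 0.465% of all transcripts (84 of 18076). The median of the 309 was -0.06, beside 0.59 for the 35 and -0.02 over all transcripts. These values are given side by side without a test. The overlap condition leaves out transcripts with a wide spread between libraries, and its part in the number of calls was not tested.

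Of the 35 transcripts, 14 (40%) had a mean over 100 CPM, against 8.80% of the transcripts with at least 5 CPM. This mean includes the WT + XBP1(S) libraries, in which the transcripts were chosen to be high. The condition of no overlap is also harder to meet for scarce transcripts, with more counting error. How far the selection sets this difference was not tested. No library of a genotype stood apart by Dixon's criterion in any of 72 groups of 6 libraries, covering 11 transcripts and the summed level.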
